A study of Homo sapiens with 2 samples.

Results

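The genes described here are the collagens, the laminin chains, fibronectin (FN1) and the proteases that cut the extracellular matrix, together with the inhibitors of those proteases. The rule that picked them used the symbol and no measured value, although the set was proposed with earlier results of these data known. It takes in numbered collagen chains, laminin chains, MMPs, TIMPs, ADAMs and ADAMTSs, plus FN1. Of the 12007 gene symbols in the data, 51 met this rule. The full GENCODE 29 annotation holds 122 protein-coding genes with such symbols, and those outside the 51 were not listed in the data. RNA-seq was performed on ACHN cells, an established human renal cell carcinoma line with epithelial features. The shKIAA1429 group carried a lentiviral shRNA against KIAA1429 (gene symbol VIRMA), a subunit of the complex that writes N6-methyladenosine (m6A) on mRNA, and the shNC group carried a control shRNA. Both groups were stable lines kept after puromycin selection. The labels call the shKIAA1429 group a knockout, whereas the methods describe a knockdown. Which shRNA was sequenced, and whether a line came from 1 clone, is not given. The comparison addresses which mRNAs differ in level when KIAA1429 is targeted.

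There was 1 library per group. No spread between replicates can be measured, so no difference here was tested, and all values are levels in single libraries. Levels are FPKM, fragments scaled to transcript length and to the number of mapped fragments, so that genes can be compared per length. A difference is given as the log2 change, the log2 of (FPKM + 1) in shKIAA1429 over (FPKM + 1) in shNC, for genes whose FPKM averaged at least 1 over both libraries. KIAA1429 itself was at 3.92 FPKM in shNC and 3.22 FPKM in shKIAA1429, which is 82.1% of the control level. FPKM of all genes summed to 283046 in shNC and 249409 in shKIAA1429, and to 163587 and 163171 without the mitochondrial genes, so mitochondrial transcripts took a larger part of the shNC library. Their part in the differences below was not tested. Read depth cannot be recovered from FPKM. Of 12 markers of a renal epithelial line, 10 were listed, among them PAX8 at 64.7 and 104 FPKM and KRT19 at 292 and 212 FPKM, in shNC and shKIAA1429 respectively. The 10 summed to 1008 FPKM in shNC and 821 FPKM in shKIAA1429. PAX8, PAX2 and KRT18 were higher in shKIAA1429 and the other listed ones were lower. CA9 and CDH6 were not listed. Of 5 endothelial markers 0 were listed, and of 4 leukocyte markers CD68 was listed, at 3.87 and 2.06 FPKM. Of 7 fibroblast markers 3 were listed, and their sum was 108 and 112 FPKM. ACTA2 was higher in shKIAA1429 (47.1 and 76.2 FPKM), THY1 was lower (60.4 and 34.8 FPKM), and PDGFRB was at 0.667 and 0.977 FPKM. Their part in the differences below was not tested. In bulk RNA, fewer cells that express a gene and less of its RNA per cell cannot be told apart.

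Epithelial cells rest on a basement membrane, a sheet built from networks of type IV collagen and laminin. Collagen chains wind into triple helices, and each laminin is a cross of an alpha, a beta and a gamma chain, so partner chains have to be made together. Fibronectin forms fibrils that integrins on the cell surface hold and stretch. MMPs, ADAMs and ADAMTSs are metalloproteases: MMPs cut matrix proteins, ADAMs mostly shed proteins from the cell surface, and ADAMTSs cut proteoglycans and trim procollagens. TIMPs bind the active site of MMPs and inhibit them. In renal carcinoma, as in other carcinomas, this set is known for its part in invasion through the basement membrane.

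Most matrix and protease genes differed little between the libraries. On average over both libraries, 41 of the 51 genes reached 1 FPKM. Of these, 23 were higher and 18 lower in shKIAA1429 (56.1% higher, against 57.3% of all 10702 genes). On the log2 scale, 35 lay within 0.5 of no change (85.4%, against 84.0% of all genes). The median log2 change was 0.02, with quartiles at -0.20 and 0.31, against a median of 0.06 with quartiles at -0.15 and 0.27 over all genes. The split between higher and lower moved with the scaling. With both libraries brought to a total of 1000000 (rescaling, below), 28 of 41 were higher, and the median of all genes shifted by 0.18. It was then 0.24, against 0.20 for the matrix genes. Rescaling without mitochondrial genes left 23 of 41 higher, and centring on the median of all genes left 18 of 41. The share of all genes higher was not computed under these scalings, so this movement is not a result about the matrix genes. Past a log2 change of 1.5 there were 0 matrix genes in either direction. Of all genes, 0.383% were higher and 0.252% lower by that much. The study set 1.5 as a limit on DESeq2 fold changes together with a p-value, and no p-value was made here. With 0.1 added to FPKM in place of 1, TIMP2 (1.54) and MMP15 (-1.53) passed 1.5. The share of all genes past 1.5 was not computed with 0.1 added, so these calls have no background. Past 1, FN1 and TIMP2 were higher (4.88% of 41 genes, against 1.61% of all genes) and MMP15 was lower (2.44%, against 0.897%). These shares rest on 2 genes and 1 gene.

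**Figure D1:**
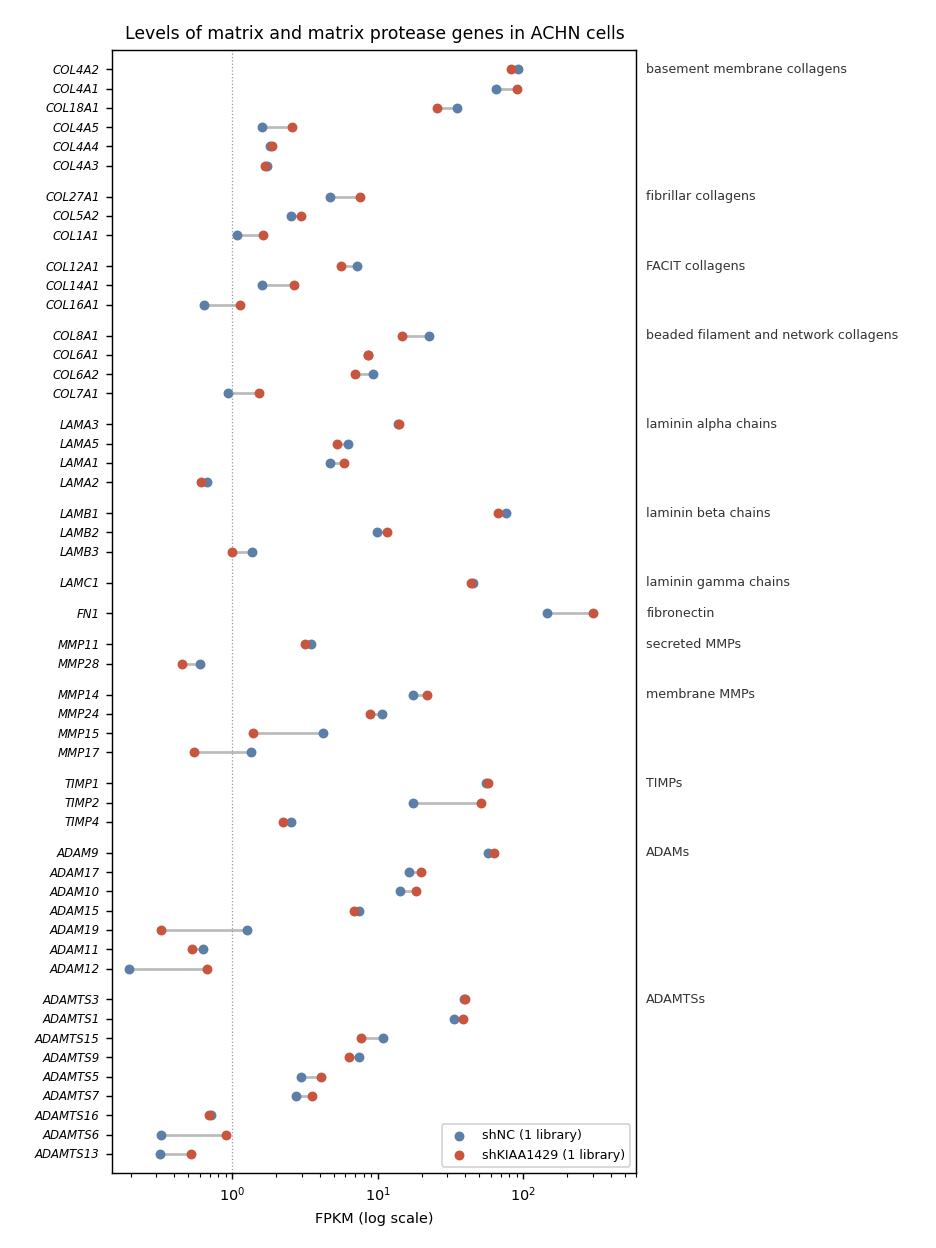
Level of the genes in both libraries (all but 1 of the 51), grouped by role, with FPKM on a log axis, blue points for shNC and red points for shKIAA1429 (1 library each) and a dotted line at 1 FPKM. FN1 at the top of the range (146 and 301 FPKM), TIMP2 (17.4 and 51.0) and MMP15 (4.20 and 1.39) have the longest gaps among genes above the line in both libraries.

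FN1 was the most abundant gene of the set in both libraries. FN1 was at 146 FPKM in shNC and 301 FPKM in shKIAA1429, a ratio of 2.06 and a log2 change of 1.04. Among all 10702 genes this change ranked 158 from the highest. It was 0.98 when centred on the median of all genes and 1.22 after rescaling. FN1 made up 16.7% of the summed FPKM of the 51 genes in shNC and 28.1% in shKIAA1429. That sum was 876 FPKM in shNC and 1071 FPKM in shKIAA1429, and without FN1 it was 730.3 and 769 FPKM, so most of the gap between the libraries lay in this gene. The data place FN1 at chr2:216225163-216300895 on the minus strand (GRCh37). The stretch upstream of its RefSeq transcription start is shown because FN1 carried most of that gap. It lies at chr2:215436173-215436318 of GRCh38.p14, minus strand, from 250 to 105 bases before the start. Capitals mark motifs found on either strand:
FN1: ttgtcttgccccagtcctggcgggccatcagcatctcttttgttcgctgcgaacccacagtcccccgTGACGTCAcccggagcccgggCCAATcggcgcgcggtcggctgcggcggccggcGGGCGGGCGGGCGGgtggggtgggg
It held TGACGTCA, the letters of the cAMP response element, which 0.970% of the same windows of 8457 genes held. CCAAT was present once (24.6% of windows), and GGGCGG, the GC box, was present 3 times with shared bases (49.2% of windows). The TATA box letters TATAA (8.63% of windows) were absent from this stretch. It ends 105 bases before the start, and bases nearer the start were not searched. The E-box CACGTG (5.30%) was absent too, as was the AP-1 site (TGANTCA, 3.04%). A match describes the letters only.

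The basement membrane collagens were dominated by COL4A1 and COL4A2, which encode the chains of the ubiquitous type IV collagen. COL4A1 was at 64.9 FPKM in shNC and 90.5 FPKM in shKIAA1429 (log2 change 0.47). COL4A2 was at 92.0 FPKM in shNC and 82.9 FPKM in shKIAA1429 (log2 change -0.15, or 0.03 after rescaling). COL4A2 was thus the higher of the pair in shNC and COL4A1 in shKIAA1429, and their ratio was 0.71 and 1.09. The log2 changes of this pair differed by 0.62. These genes lie head to head on chromosome 13, on opposite strands, and overlap by 1338 bases in the GRCh37 coordinates of the data, and their RefSeq starts are 126 bases apart in GRCh38.p14. COL4A3 and COL4A4, which encode chains of the glomerular type IV collagen, also lie head to head, with 418 bases between the starts. They were low and nearly level: COL4A3 at 1.73 and 1.69 FPKM, and COL4A4 at 1.82 and 1.87 FPKM, in shNC and shKIAA1429. Their log2 changes differed by 0.04. COL4A5, which joins COL4A3 and COL4A4 in the glomerulus, was at 1.61 and 2.58 FPKM (log2 change 0.46). Its neighbour COL4A6 was not listed in the data. COL18A1, the heparan sulfate collagen whose end fragment is endostatin, was at 34.8 FPKM in shNC and 25.5 FPKM in shKIAA1429 (log2 change -0.44). Over the 6 basement membrane collagens 3 were higher and 3 lower, the median was 0.003, and the summed level was 197 and 205 FPKM. Of the 6, COL4A2 and COL4A3 changed sign with rescaling and COL4A4 with centring.

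The 3 fibrillar collagens were all higher in shKIAA1429, under every scaling used, and all were low. COL27A1, a fibrillar collagen of cartilage and its growth zones, was at 4.69 FPKM in shNC and 7.52 FPKM in shKIAA1429 (log2 change 0.58). COL5A2, which sets the diameter of type I fibrils as part of type V collagen, was at 2.52 and 2.95 FPKM (0.17). COL1A1, the main chain of type I collagen, was at 1.08 and 1.62 FPKM (0.33). Their partner chains COL1A2 and COL5A1 were not listed in the data. The summed level of the 3 was 8.29 FPKM in shNC and 12.1 FPKM in shKIAA1429. The FACIT collagens, which coat fibrils, split by gene: COL12A1 was at 7.23 and 5.56 FPKM (-0.33), whereas COL14A1 was at 1.61 and 2.67 FPKM (0.49).

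Among the network and beaded filament collagens, COL8A1, a short-chain collagen of vessel and corneal membranes, was at 22.3 FPKM in shNC and 14.8 FPKM in shKIAA1429 (log2 change -0.56). COL6A1 and COL6A2 encode chains of the microfibrillar type VI collagen and lie 93.0 kb apart on chromosome 21. COL6A1 was at 8.59 and 8.62 FPKM (0.005, or -0.05 when centred), and COL6A2 was at 9.29 and 7.01 FPKM (-0.36). As in the COL4A1 and COL4A2 pair, the order of the partners differed between the libraries, with a ratio of 0.92 in shNC and 1.23 in shKIAA1429. Their partner chain COL6A3, and COL8A2, the partner of COL8A1, were not listed in the data. COL7A1, the anchoring fibril collagen, was at 0.94 FPKM in shNC and 1.53 FPKM in shKIAA1429 (0.38). The summed level of these 4 genes was 41.2 and 32.0 FPKM, of which COL8A1 made up the largest share. Over all 15 collagens above the filter, 9 were higher and 6 lower, the median log2 change was 0.03, and the summed level of the 16 listed was 256 and 258 FPKM.

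Laminin chains were mostly at similar levels in both libraries. Over the 8 chains above the filter 3 were higher and 5 lower, with a median log2 change of -0.12, and the summed level of the 9 listed was 166 FPKM in shNC and 153 FPKM in shKIAA1429. Rescaling turned the ratio of the beta chain sums from 0.905 to 1.03. LAMB1 and LAMC1, the beta and gamma chains of most epithelial laminins, were the most abundant. LAMB1 was at 76.5 and 66.8 FPKM (log2 change -0.19), and LAMC1 was at 45.0 and 43.4 FPKM (-0.05, or 0.13 after rescaling). Their ratio was 1.70 in shNC and 1.54 in shKIAA1429. The alpha chains that join them were much lower: LAMA5, the main alpha chain of adult epithelia, was at 6.29 and 5.26 FPKM (-0.22), and LAMA1, the embryonic and renal tubular chain, was at 4.73 and 5.89 FPKM (0.27). LAMB1 was thus 12.2 times the level of LAMA5 and 16.2 times the level of LAMA1 in shNC. LAMA4, another alpha chain that joins LAMB1 and LAMC1, was not listed in the data. LAMB2, the beta chain of the glomerular basement membrane, was at 9.88 and 11.6 FPKM (0.21).

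LAMA3 and LAMB3 are chains of the laminin that anchors epithelial cells through hemidesmosomes, and they were not at equal levels. LAMA3 was at 13.8 FPKM in shNC and 14.0 FPKM in shKIAA1429 (log2 change 0.02, or -0.04 when centred). LAMB3 was at 1.37 and 1.0 FPKM (-0.25), and LAMA3 was 10.04 times its level in shNC and 14.0 times in shKIAA1429.

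**Figure D2:**
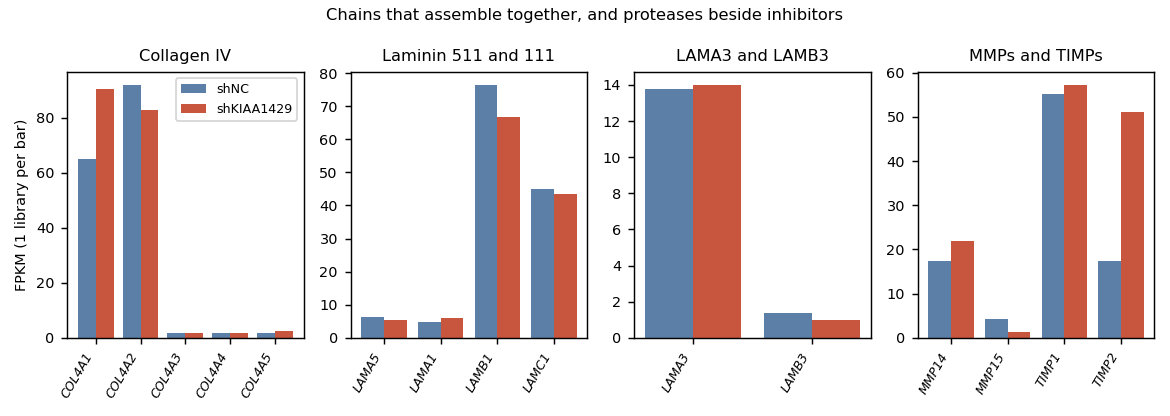
FPKM (linear axis from 0, 1 library per bar, blue for shNC and red for shKIAA1429) of chains that assemble together and of MMPs beside TIMPs. COL4A1 and COL4A2 swap order between the libraries, LAMB3 stays far under LAMA3, and TIMP2 goes from 17.4 to 51.0 FPKM while TIMP1 stays at 55.1 and 57.3 FPKM.

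Among the proteases and inhibitors, TIMP2 and MMP15 stood apart. TIMP2, which inhibits MMPs and also binds MMP14 at the cell surface, was at 17.4 FPKM in shNC and 51.0 FPKM in shKIAA1429, a ratio of 2.93. Its log2 change of 1.498 lay just under the limit of 1.5 and ranked 42 from the highest of 10702 genes. It was 1.44 when centred, 1.54 with a pseudocount of 0.1, 1.72 after rescaling and 1.55 after rescaling without mitochondrial genes. TIMP2 lies at chr17:76849059-76921469 on the minus strand (GRCh37), and CEP295NL, an annotated protein-coding gene that is not listed in the data, overlaps it on the same strand. TIMP1, a secreted inhibitor with growth factor-like effects, was at 55.1 and 57.3 FPKM (0.06, and -0.002 when centred). TIMP4 was at 2.54 and 2.23 FPKM (-0.13). TIMP2 was therefore at 0.32 of the level of TIMP1 in shNC and at 0.89 of it in shKIAA1429. The summed TIMP level was 75.1 FPKM in shNC and 110.6 FPKM in shKIAA1429. TIMP3 was not listed in the data.

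MMP15, a membrane-anchored collagenase and gelatinase, had the lowest log2 change of the 41 genes. It was at 4.20 FPKM in shNC and 1.39 FPKM in shKIAA1429, 33.2% of the control level, with a log2 change of -1.12 that ranked 65 from the lowest of 10702 genes. With a pseudocount of 0.1 it was -1.53, since at this level the added 1 shrinks the change. MMP15 lies at chr16:58059470-58080805 on the plus strand (GRCh37). As the other gene past 1 with a RefSeq promoter, its upstream stretch is shown, at chr16:58025504-58025565 of GRCh38.p14, plus strand, from 250 to 189 bases before the start, with a GC box in capitals (read as GGGCGG on the other strand and held by 23.1% of the same windows):
MMP15: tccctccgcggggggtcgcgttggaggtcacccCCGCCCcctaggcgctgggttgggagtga
The other motifs searched in the FN1 stretch, which is longer, had no match here. This stretch ends 189 bases before the start, and bases nearer the start were not searched.

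The other MMPs varied less. MMP14, the membrane protease that activates MMP2 in a complex with TIMP2, was at 17.4 FPKM in shNC and 21.8 FPKM in shKIAA1429 (log2 change 0.31). MMP14 and TIMP2 were at a ratio of 1.0 in shNC, whereas TIMP2 was at 2.34 times the level of MMP14 in shKIAA1429. MMP2 was not listed in the data. MMP24, another membrane MMP known from the nervous system, was at 10.8 and 8.81 FPKM (-0.26). MMP11, a secreted MMP known from tumour stroma, was at 3.47 and 3.16 FPKM (-0.11, or 0.04 after rescaling). Over the 4 MMPs above the filter 1 was higher and 3 lower (2 and 2 after rescaling). The summed level of the 6 listed MMPs was 37.8 and 36.2 FPKM, so that the sum of the TIMPs was 1.99 times that of the MMPs in shNC and 3.06 times in shKIAA1429. Such ratios within a library do not depend on its scaling.

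**Figure D3:**
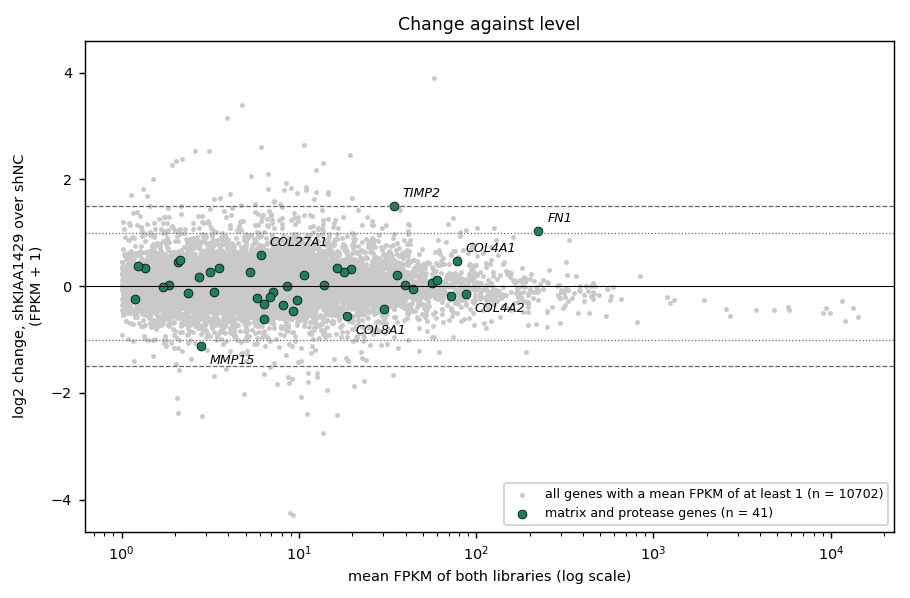
Log2 change (vertical axis) against mean FPKM (horizontal log axis) for the 41 matrix and protease genes (green) and all 10702 genes (grey), with dotted lines at 1 and dashed lines at 1.5. TIMP2 sits on the upper dashed line at 1.498, FN1 lies at 1.04, MMP15 lies at -1.12, and the remaining 38 genes lie between the dotted lines.

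The ADAMs above the filter were led by ADAM9, a widely expressed sheddase, at 57.4 FPKM in shNC and 62.5 FPKM in shKIAA1429 (log2 change 0.12). ADAM10, which cleaves Notch receptors and cadherins, was at 14.3 and 18.4 FPKM (0.34). ADAM17, which releases tumour necrosis factor and EGF receptor ligands, was at 16.3 and 19.8 FPKM (0.26). These main sheddases were thus close in level, and their changes differed by 0.08. ADAM15 was at 7.43 and 6.85 FPKM (-0.10, or 0.06 after rescaling). The gene DCST1, which is not listed in the data, overlaps ADAM15 on the same strand. The summed level of the 7 listed ADAMs was 97.5 and 109 FPKM.

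The ADAMTSs were led by ADAMTS3, which removes the amino-terminal propeptide of procollagen and activates VEGFC, and by ADAMTS1, a versicanase. ADAMTS3 was at 39.3 FPKM in shNC and 39.8 FPKM in shKIAA1429 (log2 change 0.02, or -0.04 when centred). ADAMTS1 was at 33.3 and 38.4 FPKM (0.20). The aggrecanase ADAMTS5, its neighbour at 72.5 kb on chromosome 21, was at 2.99 and 4.06 FPKM (0.34). ADAMTS15, another proteoglycan-cleaving enzyme, was at 10.9 and 7.65 FPKM (-0.47), the log2 change farthest from 0 among the 6 ADAMTSs above the filter. ADAMTS9 was at 7.40 and 6.30 FPKM (-0.20) and ADAMTS7 at 2.76 and 3.55 FPKM (0.27). Of 6 above the filter 4 were higher and 2 lower, and the summed level of the 9 listed was 98.1 and 102 FPKM.

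Of the 51 genes, 10 had a mean FPKM under 1 and entered no count above. They were COL16A1, LAMA2, MMP17, MMP28, ADAM11, ADAM12, ADAM19, ADAMTS6, ADAMTS13 and ADAMTS16. MMP17, a GPI-anchored MMP, was at 1.35 FPKM in shNC and 0.545 FPKM in shKIAA1429, and so was lower in the same library as MMP15. ADAM19 was at 1.26 and 0.323 FPKM, and an annotated gene overlaps it on the same strand. ADAM12 was at 0.195 and 0.669 FPKM, ADAMTS6 at 0.323 and 0.903 FPKM, and COL16A1 at 0.640 and 1.13 FPKM. At such levels a ratio rests on few reads, and how few is unknown here. Every listed gene exceeds 0.5 FPKM in at least 1 library. A gene under 0.5 FPKM in 1 library is thus listed only through the other, and its difference in that direction follows from the listing.

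The transcripts of the matrix genes were long. The longest coding transcript of the 41 genes in GENCODE 29 had a median length of 6409 bases and a GC content of 53.7%, against 3368 bases and 48.5% for all genes matched (10644 of 10702). GGACT, the commonest form of the sequence context in which m6A is written, occurred in 41 of 41 matrix transcripts and in 92.1% of all transcripts, at a median of 1.14 and 0.927 per kb of sequence. FN1 (8905 bases) held 7, TIMP2 (3652 bases) held 3 and MMP15 (4250 bases) held 5, which is 0.786, 0.821 and 1.18 per kb. The genes higher in shKIAA1429 by more than 1 thus lay under the median density of the set and MMP15 just over it. Methylation itself was not measured in these libraries.

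Other genes of matrix assembly and turnover were described by 4 lists, of which 88 genes were listed and 84 were above the filter. Of the 84, 51 were higher and 33 lower (60.7% higher, against 57.3% of all genes and 56.1% of the matrix genes), and the median log2 change was 0.13. Past 1, 4 of the 84 were higher and 1 lower, where 1.61% and 0.897% of all genes were. The 1 lower gene is near the background. The 4 higher genes are few, come from lists chosen with earlier results known, and include TNC, which fell under 1 when centred. The collagen processing and crosslinking enzymes had 14 higher and 11 lower of 25. LOX, the lysyl oxidase that crosslinks collagen and elastin, was at 18.4 FPKM in shNC and 40.5 FPKM in shKIAA1429 (1.10). PPIB, a prolyl isomerase of collagen folding, was the most abundant at 86.1 and 92.7 FPKM (0.11). CRTAP, its partner in prolyl hydroxylation, was at 60.8 and 44.9 FPKM (-0.43).

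The other matrix glycoproteins had 14 higher and 8 lower of 22. NID2, the nidogen that bridges laminin and type IV collagen, was at 5.34 FPKM in shNC and 14.5 FPKM in shKIAA1429 (1.29). NID1, the other nidogen, was at 22.8 and 12.2 FPKM (-0.85), and is named here after its value was seen. The nidogens thus stood in opposite directions, and NID1 was the higher of the pair in shNC and NID2 in shKIAA1429. TNC, the adhesion-modulating tenascin, was at 2.73 and 6.75 FPKM (1.06, and under 1 when centred). The most abundant were CYR61, at 286 FPKM in both, and THBS1, at 230 and 248 FPKM (0.11).

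The plasmin system and protease regulators had 11 higher and 8 lower of 19. PLAU, the urokinase that turns plasminogen into plasmin, was at 64.0 FPKM in shNC and 137 FPKM in shKIAA1429 (1.09). BSG, the inducer of MMP production at the cell surface, was at 81.9 and 74.2 FPKM (-0.14). The collagen and laminin receptors had 12 higher and 6 lower of 18. ITGB1, the common beta chain of the collagen, laminin and fibronectin integrins, was at 102 and 137 FPKM (0.41), and SDC4, a heparan sulfate co-receptor, was at 77.6 and 81.8 FPKM (0.07). DAG1, which encodes dystroglycan and binds laminin, was at 3.65 FPKM in shNC and 0.561 FPKM in shKIAA1429 (-1.57), the only one of the 84 past 1.5 with the values as deposited.

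**Figure D4:**
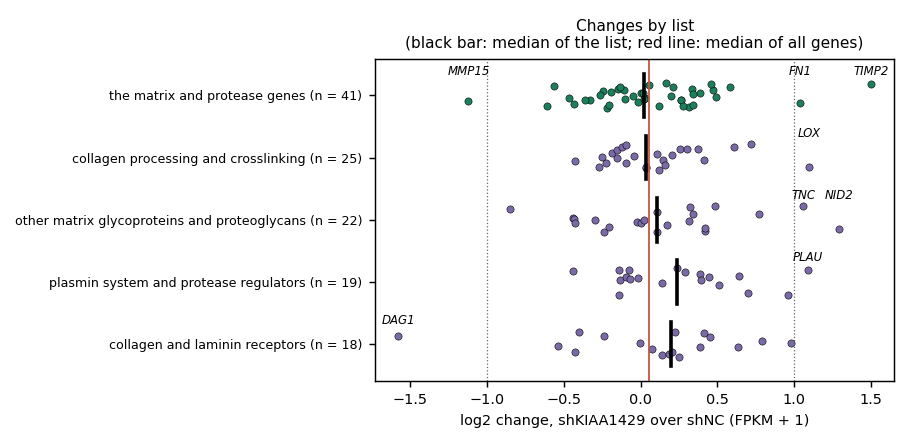
Log2 change of each gene above the filter in the 41 matrix and protease genes and in 4 lists of related genes (1 point a gene, spread vertically for legibility), with the median of each list as a black bar, the median of all genes as a red line and dotted lines at 1. The medians lie between 0.02 and 0.24, and the genes named are those past 1.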

How the data were processed

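The data were 1 mRNA library of shKIAA1429 and 1 of shNC ACHN cells, made from poly(A) RNA with strand marking and paired-end sequencing. The authors deposited FPKM per gene for each library. The submitters' processing notes list cutadapt 1.9, HISAT2 2.0.4, StringTie 1.3.4d, DESeq2 and edgeR, with no role or order, and the genome build is not given in the sources used here; the coordinates in the deposited files are those of GRCh37. Every row exceeds 0.5 FPKM in at least 1 library, and all rows are protein coding. Of 7 symbols on more than 1 row, none of them a matrix gene, the most abundant row was taken.

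From the deposited FPKM, log2 changes were computed with a pseudocount of 1, which understates changes of low genes, for genes averaging at least 1 FPKM (Python 3.11.15, pandas 2.3.3). Without counts or replicates, no test, interval or adjusted p-value was made. The limit of 1.5 is that of the study, and 1 was added. Alternatives were a pseudocount of 0.1, centring, rescaling to 1000000 with and without mitochondrial genes, no filter or a mean FPKM of 5, leaving out same-strand overlaps (0 with listed genes) and summing rows. The calculation was tested on simulated data, with planted changes larger than those of the matrix genes and only in genes averaging at least 5 FPKM. Changes near 1 and lower genes were not covered.

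Named genes were those past 1, the 2 most abundant and the 2 with the largest change in each role group, all chains of a partner set, and in the lists of related genes those past 1 and the 2 most abundant. The other members were named to account for the whole set, except 1 that counts in the totals but is not reported here. The members and lists were chosen with earlier results of these data known. Promoter windows are from RefSeq (GRCh38.p14) and were found for 34 of 51 genes, too few for a comparison of motifs over the set. Each was trimmed to the bases before every GENCODE 29 exon.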

Additional observations from a re-analysis of the deposited data

How the results depend on the processing

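No paired analysis was possible because each group holds 1 library, and for that reason no library could be left out. Against 0 genes past 1.5 in either direction, 1 was higher (TIMP2) with a pseudocount of 0.1, after rescaling and after rescaling without mitochondrial genes, and 1 was lower (MMP15) with a pseudocount of 0.1. Past 1, 1 gene in place of 2 was higher when centred, since FN1 was then at 0.98. Likewise 0 in place of 1 were lower with a mean FPKM of at least 5, a filter that leaves MMP15 out. The median of the set was 0.20 after rescaling, where that of all genes was 0.24. The share higher was 68.3% after rescaling and 43.9% when centred, against 56.1%. The share of all genes higher was not computed under either setting. Of the related genes, 9 were past 1 with a pseudocount of 0.1, 10 after rescaling and 9 after rescaling without mitochondrial genes, against 5. When centred, 4 were, since TNC then lay under 1. Shares of all genes past 1 or 1.5 were not computed under these alternatives. The counts under them therefore have no background and are not results about these genes. Over 4 settings, 163 of 164 values of single genes kept their side of 1 and of -1. Since 38 of the 41 genes lay within 1 of no change, this tally had little room to move. It does not speak to direction, and 5 genes changed sign with rescaling. Of 103 medians of role groups, 25 moved by more than 0.1, and of 44 differences between partners 3 did, those of LAMA3 and LAMB3. The other settings run for the 41 genes gave the same counts past 1 and 1.5. Rescaling turned, among others, the summed ratio of the FACIT collagens (0.987 to 1.12), laminin beta chains (0.905 to 1.03), secreted MMPs (0.888 to 1.01) and membrane MMPs (0.967 to 1.10). It also multiplies all values, so that the pseudocount weighs less. Depth is unknown, so the counting error of no value can be given.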
